A study of Homo sapiens with 10 samples.

Results

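Histone genes were followed across the 6 groups of a study of human prostate cancer cells. A gene was a member if a probe set annotated with a single symbol named it as H1 with a number, as a clustered H2A, H2B, H3 or H4 gene (H2AC, H2BC, H3C or H4C with a number), or as 1 of the 6 variants H2AX, H2AZ1, H2AZ2, H2AJ, H3-3A and H3-3B. Of 79 reference genes that match this rule, 50 had such a probe set, out of 19775 genes measured this way. A further 20, H3-3B among them, lay only in probe sets shared between several symbols, and 9 were not analysed here. The 50 members comprise 42 clustered genes, 5 variants and the 3 linker genes H1-7, H1-8 and H1-10, which lie outside the clusters.

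The samples were LNCaP and DU145 cells. LNCaP is an androgen-responsive line derived from a lymph node metastasis, and DU145 is an androgen-independent line derived from a brain metastasis. Each line had 1 array of EOS-selected cells treated with ribavirin, a guanosine analogue, 2 arrays of EOS-selected cells without it and 2 arrays of PGK control cells. The EOS vector carries GFP and puromycin resistance under OCT4 and SOX2 enhancers, and the PGK vector carries both under the ubiquitous PGK promoter. All cells were thus transduced, and EOS cells were enriched in puromycin for a few weeks. Ribavirin dose and duration, and whether arrays 1 and 2 of a group came from separate cultures, are not given in the labels, so p-values reflect only how these arrays vary, and that variation may be technical.

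Histones H2A, H2B, H3 and H4 form the core of the nucleosome, and H1 binds the linker DNA between cores. Most clustered genes lie in arrays on chromosome 6, are transcribed mainly in S phase and give mRNAs that end in a stem-loop in place of a poly(A) tail. Variant genes such as H2AZ1 and H3-3A are expressed through the cell cycle, and their mRNAs are polyadenylated. Standard labelling for these arrays starts from oligo(dT) primers, so a clustered gene is seen mainly through transcripts that carry a tail.

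Of the 42 clustered members 31 passed the filter for low values, as did 5 of 5 variants and 1 of 3 linker genes outside the clusters (H1-10). The 13 members that did not pass were H1-1, H1-5, H1-7, H1-8, H2AC16, H2BC1, H2BC13, H3C1, H3C3, H3C7, H3C11, H4C9 and H4C13, with mean levels of 4.56 to 6.08. Levels throughout are log2(scaled intensity + 16) of 1 probe set, and levels of different genes are not set against each other. Among the 31 tested clustered genes, 29 lie on chromosome 6 and 2 on chromosome 1, and 11 were read by probe sets whose suffix marks possible matches to related sequences. Coding sequences within a core histone family are similar, so a value for 1 clustered gene may hold signal of its relatives.

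Promoter sequences are shown because the clustered H2A and H2B genes share an element that the rule for membership did not use. The octamer ATTTGCAT is bound by POU-domain factors, the family of OCT1 (POU2F1) and OCT4 (POU5F1), and is a known element of H2B promoters. It was searched on both strands in the 250 bases before each annotated start, with CCAAT and TATAAA (RefSeq, GRCh38.p14). Capitals below mark these motifs or their reverse complements. H2BC12 (chr6:27146859-27147108, minus strand), H1-2 (chr6:26056471-26056720, minus strand) and H2AC6 (chr6:26123922-26124171, plus strand) are shown for the clustered class and H2AZ1 (chr4:99950276-99950525, minus strand) for the variants. They were picked by the mean signal of their probe sets, a choice for display that does not rank expression. Each sequence is the stretch just upstream of its gene.
H2BC12: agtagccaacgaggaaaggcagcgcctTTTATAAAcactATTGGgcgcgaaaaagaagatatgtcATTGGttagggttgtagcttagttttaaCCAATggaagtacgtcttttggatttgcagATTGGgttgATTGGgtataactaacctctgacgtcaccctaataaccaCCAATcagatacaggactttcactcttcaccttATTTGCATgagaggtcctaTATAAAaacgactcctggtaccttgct
H1-2: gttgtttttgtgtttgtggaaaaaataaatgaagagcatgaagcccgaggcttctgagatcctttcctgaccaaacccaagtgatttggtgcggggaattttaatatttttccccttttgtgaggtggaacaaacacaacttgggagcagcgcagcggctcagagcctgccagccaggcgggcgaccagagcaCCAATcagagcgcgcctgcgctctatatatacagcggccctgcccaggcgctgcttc
H2AC6: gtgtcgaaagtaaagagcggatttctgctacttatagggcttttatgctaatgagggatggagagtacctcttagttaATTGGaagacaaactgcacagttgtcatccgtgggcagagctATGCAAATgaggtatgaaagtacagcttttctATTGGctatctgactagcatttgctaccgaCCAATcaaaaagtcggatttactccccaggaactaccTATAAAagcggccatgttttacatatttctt
H2AZ1: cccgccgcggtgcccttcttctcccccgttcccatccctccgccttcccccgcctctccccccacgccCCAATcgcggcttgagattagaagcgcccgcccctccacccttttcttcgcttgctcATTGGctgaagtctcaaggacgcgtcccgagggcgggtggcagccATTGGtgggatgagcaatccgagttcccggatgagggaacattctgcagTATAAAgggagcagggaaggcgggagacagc
The H2BC12 window holds the octamer once, ending near the start, 6 CCAAT motifs and 3 TATAAA motifs, of which 2 overlap each other on opposite strands at its distal end. The H2AC6 window holds the octamer in reverse orientation, whereas the windows of H1-2 and H2AZ1 hold none.

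The octamer was found in 16 of 21 clustered H2A and H2B genes (76.19%), in 0 of 19 clustered H1, H3 and H4 genes, in 0 of 5 variants and in 0 of 3 other linker genes. Among all 27305 genes in the table, 554 windows (2.03%) held it. In H2BC9, H2BC11, H2BC12, H2BC14 and H2BC21 its near end lay 39 to 42 bases before the start, and in the other 11 genes 91 to 199 bases before it. CCAAT was found in 35 of 40 clustered genes and 5 of 5 variants, against 37% of all genes. TATAAA was found in 27 of 40 clustered genes and 2 of 5 variants, against 13.05% of all genes. H3C11 and H4C1 had no entry in the table. A motif match is a description of letters and does not show binding.

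**Figure D1:**
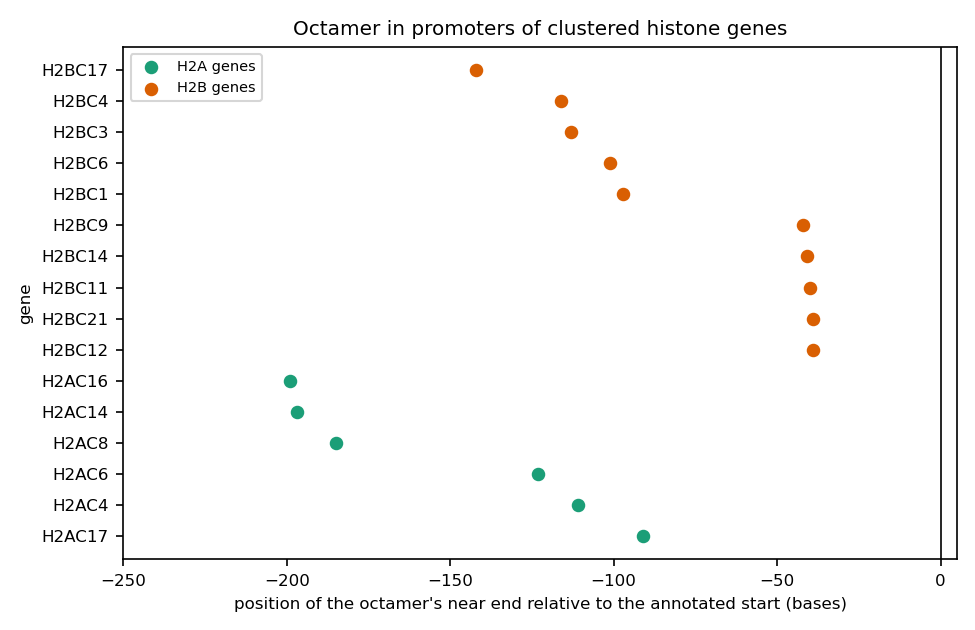
Distance in bases from the annotated start to the near end of the octamer in the 16 clustered histone genes that hold it, with H2B genes in orange and H2A genes in green. A set of 5 H2B genes holds it 39 to 42 bases upstream, and the H2A genes hold it 91 to 199 bases upstream.

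Several facts of the arrays bear on the values below. The 6 arrays numbered 2 were deposited at trimmed means of 96.56 to 126.5 and the 4 arrays numbered 1 at 500, and each array was scaled to 500 here. For ACTB, the signal of the 3' probe set over that of the 5' one was 3.20 to 3.99 on arrays numbered 2 and 1.24 to 1.51 on arrays numbered 1. GAPDH gave 3' over 5' values of 1.09 to 1.22 for number 2 arrays and of 0.96 to 1.06 for number 1 arrays. Array number thus goes with both end ratios, a sign of RNA length after amplification, with a wide gap for ACTB and a narrow one for GAPDH. Luminal markers of LNCaP such as KLK3 were higher in LNCaP in 6 of 6 measured genes. Markers of DU145 such as CAV1 were lower in 5 of 5 that passed the filter, of 6 measured. The luminal markers passed the filter only on LNCaP arrays, and CD44, CAV1 and ZEB1 only on DU145 arrays. The direction of these markers was thus set by the filter, and the counts are a description. Of the fibroblast, leukocyte and endothelial markers, 4 of 7, 2 of 7 and 2 of 5 passed the filter. The summed fibroblast marker intensity was 2856 on DU145 EOS 2 and 3199 on the DU145 ribavirin array, against 337.1 to 843.8 on the other 8 arrays. On these 2 arrays POSTN was at 10.77 and 10.99 and COL3A1 at 9.01 and 8.63, against 7.24 and 5.71 on DU145 PGK 2. COL1A1 was at 8.94 and 9.47 and DCN at 6.32 and 5.81, against 8.98 and 5.97 on DU145 PGK 2. The rise was thus not shared by all 4 markers. The part of the fibroblast markers in any result was not tested.

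The cell lines differed in histone genes of both classes. Variants H2AJ, H2AX and H2AZ1 were higher in LNCaP than in DU145, and the linker gene H1-2, the H2A gene H2AC6 and the H2B genes H2BC4, H2BC5 and H2BC6 were lower. Over PGK and EOS arrays, 4 against 4, limma called 14 of 37 tested members at an adjusted p under 0.05, 6 higher and 8 lower in LNCaP, against 46.2% of all 14330 genes tested (22.6% higher and 23.6% lower). The members' share was thus not above that of all genes. On unscaled values, where arrays of a group differ in deposited scale, 0 members were called. The median difference was -0.09 for the 31 clustered genes, 0.70 for the 5 variants and -0.01 for all genes. The gap of -0.79 between clustered and variant medians was -0.09 when only probe sets without a suffix were used, where 3 variants remained. In bulk RNA, fewer cells of a type and less RNA per cell cannot be told apart.

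H2AX, whose phosphorylated form marks DNA breaks, was at 13.24 and 13.17 in LNCaP EOS cells and 13.38 and 13.36 in LNCaP PGK cells. In DU145 it was at 11.71 and 11.60 in EOS cells and 11.24 and 11.77 in PGK cells. The lines did not overlap, and the difference was 1.71 ± 0.14 (SE, adjusted p = 2.25e-05). H2AJ, a variant reported to accumulate in senescent human fibroblasts, was at 13.94, 13.87, 13.96 and 13.50 in LNCaP, against 11.998, 11.99, 11.85 and 11.92 in DU145. All LNCaP arrays were again above all DU145 arrays, by 1.88 ± 0.13 (adjusted p = 7.57e-06). Of 3 further H2AJ probe sets, 1 differed by 2.10, and 2 dim ones differed by 0.25 and 0.02. A dim H2AX probe set differed by -0.32, and 2 others by 0.90 and 1.25.

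H2AZ1 and H2AZ2 encode the 2 nearly identical forms of H2A.Z, a variant found at promoters, and they differed in opposite directions. H2AZ1 was at 15.16, 15.10, 15.09 and 15.44 in LNCaP, against 14.64, 14.58, 14.40 and 14.46 in DU145, a difference of 0.68 ± 0.10 (adjusted p = 0.000737). H2AZ2 was at 13.37, 13.10, 13.13 and 13.36 in LNCaP, against 13.72, 13.51, 13.58 and 13.59 in DU145, a difference of -0.36 ± 0.12 (adjusted p = 0.0323). The lines overlapped for neither gene. The other H2AZ1 probe set differed by 0.48, and the other 3 of H2AZ2 differed by -0.74 to -1.30.

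H3-3A encodes the H3.3 variant that is placed outside replication. It was at 9.23, 9.40, 8.72 and 9.42 in LNCaP, against 8.07, 8.88, 8.11 and 8.90 in DU145, a difference of 0.70 ± 0.28 (adjusted p = 0.0666). This became a call with the line-by-number block (adjusted p = 0.0059), under which 19 of 37 members and 56% of all genes were called. H1-10, a linker histone gene outside the clusters, differed by 0.32 ± 0.17 (adjusted p = 0.163).

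Among the 31 clustered genes 3 were called higher and 7 lower in LNCaP, against 22.6% and 23.6% of all genes. H1-2, a linker histone gene of the chromosome 6 cluster, was at 10.66 and 11.76 in LNCaP EOS cells and 11.12 and 13.03 in LNCaP PGK cells. In DU145 its 4 arrays lay between 13.14 and 13.46. LNCaP was lower on every array, by -1.63 ± 0.40 (adjusted p = 0.00931), and LNCaP PGK 2 came closest to DU145. H2AC6, a clustered H2A gene, was at 10.13, 9.89, 10.31 and 11.73 in LNCaP, against 11.99, 12.11, 12.46 and 12.09 in DU145, a difference of -1.65 ± 0.28 (adjusted p = 0.00153). LNCaP PGK 2 was again the highest of the LNCaP arrays, here by over 1 log2 unit.

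H2B genes were mostly lower in LNCaP, with 9 of 11 below 0 and 3 called, against 23.6% of all genes called lower. The share of H2B genes called was thus near that of all genes. H2BC4 was at 6.94, 7.37, 7.04 and 8.04 in LNCaP, against 8.86, 9.44, 8.71 and 9.27 in DU145, and the difference was -1.72 ± 0.29 (adjusted p = 0.00131). H2BC5 differed by -1.12 ± 0.28 (adjusted p = 0.0098), but its other probe set differed by 0.02. H2BC6 differed by -0.98 ± 0.33 (adjusted p = 0.0409), with LNCaP PGK 2 at 11.63 inside the DU145 range. H3C2, an H3 gene read by a probe set of possible cross-matches, was lower by 1.77 log2 units (SE 0.42, adjusted p = 0.00793), and H1-3 by 0.61 (SE 0.21, adjusted p = 0.0449).

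The 3 clustered genes that were higher in LNCaP were H2AC25 (1.20 ± 0.28, adjusted p = 0.00731), H2AC17 (0.88 ± 0.20, adjusted p = 0.00748) and H3C6 (1.19 ± 0.40, adjusted p = 0.0388). H2AC25 lies on chromosome 1, outside the large cluster. The second H3C6 probe set differed by 3.12. Of the 6 H4 genes, 4 were above 0 and 0 were called, although 2 had an unadjusted p under 0.05 and H4C11 and H4C8 became calls with the block. Of the 14 calls, 10 held when each of the 8 arrays was left out in turn. H1-3 lost its call without 7 of the arrays, H2BC6 and H3C6 without 6 each and H2AZ2 without 5. H2BC12, at -0.62 ± 0.23 (adjusted p = 0.0534), became a call with the block and without LNCaP PGK 2.

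**Figure D2:**
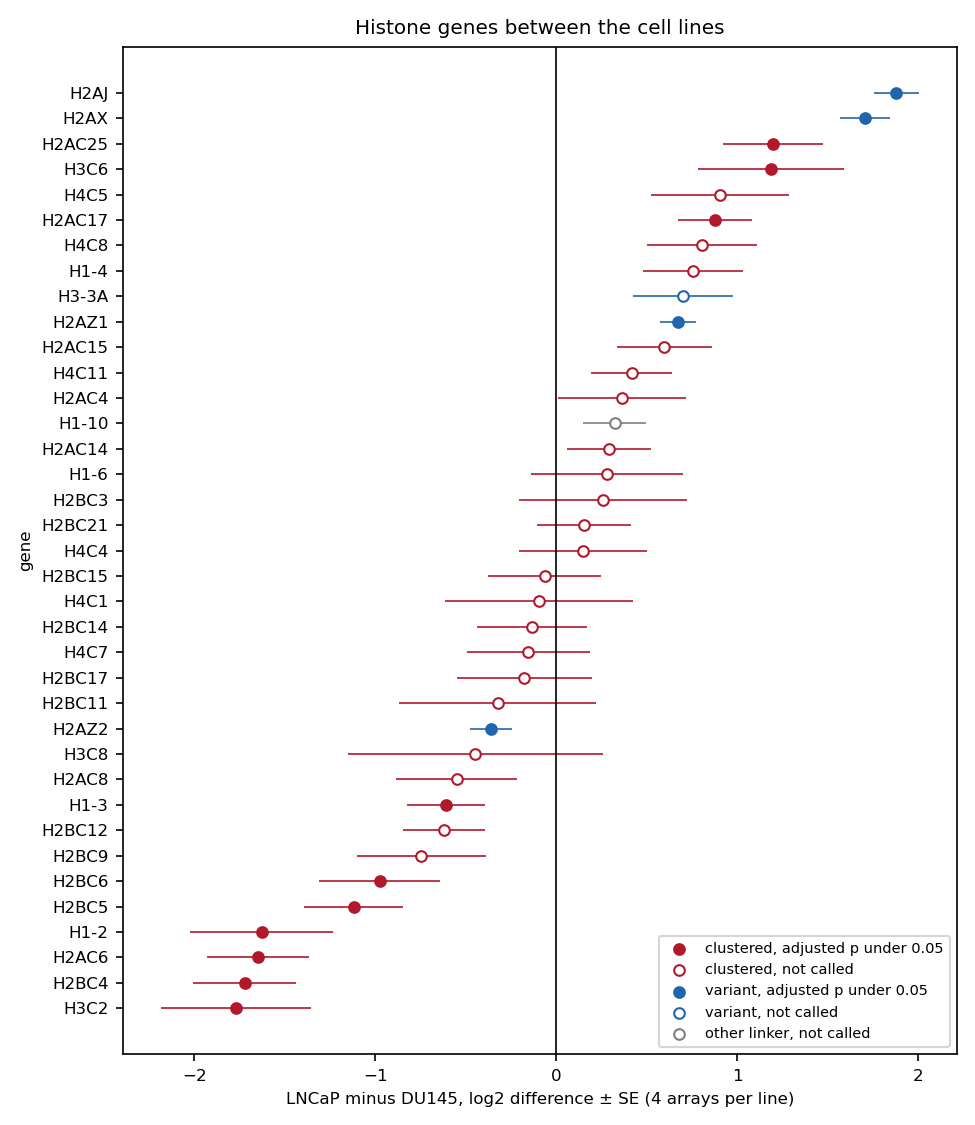
Difference LNCaP minus DU145 for the 37 tested histone genes in log2 units, with SE as bars, from 4 arrays per line. Filled points are genes with an adjusted p under 0.05, and the variants H2AJ and H2AX lie at 1.88 and 1.71 while 7 clustered genes are filled on the left.

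The lists for histone mRNA and for histone chaperones were called between the lines at shares no higher than the 46.2% of all genes. S phase genes and the 4 other histone variants were called at larger shares, from few genes. Of all genes 22.6% were called higher and 23.6% lower. Of 15 genes listed for histone mRNA synthesis and 3' processing, 1 was called higher in LNCaP and 5 were called lower. The 5 include ARID3B (-1.55), whose place in that process was not checked. CASP8AP2, a factor needed for histone gene transcription, differed by -1.41 ± 0.24 (adjusted p = 0.0016) and ERI1, an exonuclease that trims histone mRNA ends, by -1.01 ± 0.17 (adjusted p = 0.00125). Of 20 histone chaperones, 4 were called higher and 3 lower. ANP32E, which removes H2A.Z, differed by -1.56 ± 0.21 (adjusted p = 0.000442), and NASP, a carrier of H3 and H4, by 0.52 ± 0.18 (adjusted p = 0.0441). Of 19 S phase genes 8 were called higher and 3 lower, with PCNA, the replication clamp, at 0.61 ± 0.10 (adjusted p = 0.00103) and the helicase subunit MCM5 at -0.92 ± 0.28 (adjusted p = 0.0244). Of 4 other histone variants, MACROH2A1 was called higher (0.98 ± 0.10, adjusted p = 7.6e-05), although its probe set without a suffix differed by -3.04, and CENPA, the centromeric H3, lower (-0.73 ± 0.16, adjusted p = 0.00677). NFYB, a subunit of the factor that binds CCAAT, was lower by 1.20 (SE 0.14, adjusted p = 0.000209). It was the single call among the 5 tested genes of its list, with POU2F2, SOX2, NFYA and NFYC. POU2F1 and POU5F1 are not among these 5.

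EOS selection was set against PGK in each line. In LNCaP, 23 of 31 clustered genes lay lower in EOS cells, and no gene passed the test. limma called 0 of 37 members and 0% of 14330 genes at an adjusted p under 0.05, also with the block. At an unadjusted p under 0.05, 1 member was lower, against 1.1% of all genes lower and 3.06% higher. The median difference was -0.32 for clustered genes, -0.01 for variants and 0.05 for all genes. Values of EOS and PGK arrays did not overlap for 7 of 31 clustered genes on the lower side (10.6% of all genes) and for 2 on the higher side (18% of all genes). H2BC17, 1 of these 7, passed the filter for low values only on PGK arrays. The filter itself thus favoured its place in the counts of lower genes.

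Single members show how much of this came from 1 array. H2AC6 was at 10.13 and 9.89 in LNCaP EOS cells, against 10.31 and 11.73 in LNCaP PGK cells, a difference of -1.01 ± 0.40 (adjusted p = 0.999). Both EOS arrays were below both PGK arrays, but the pair numbered 1 differed by -0.17 and the pair numbered 2 by -1.84. H2BC12, an H2B gene, was at 12.97 and 13.31 in EOS cells, against 13.28 and 14.46 in PGK cells, a difference of -0.73 ± 0.32 (adjusted p = 0.999) that was -0.31 in pair 1 and -1.15 in pair 2. H1-2 was at 10.66 and 11.76 in EOS cells, against 11.12 and 13.03 in PGK cells, and its pairs differed by -0.47 and -1.28.

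LNCaP PGK 2 was the high array for each of these genes. Without it, H2AC6 differed by -0.29 and H2BC12 by -0.14, while 19 of 31 clustered genes were lower with a median of -0.15. In pair 1 alone 22 of 31 were lower with a median of -0.24, and in pair 2 alone 22 of 31 with a median of -0.50. H3C8, an H3 gene that varied widely on both lines, was at 5.43 and 4.89 in EOS cells, against 7.51 and 6.89 in PGK cells, and differed by -2.04 ± 0.99 (adjusted p = 0.999). H2AC14, a clustered H2A gene, differed by -0.61 ± 0.33. Of the 16 clustered genes brighter than the median on every array, 15 were lower, and of the other 15, 8 were lower.

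The H2B group carried the same pattern, with 9 of 11 genes, H2BC17 included, lower in LNCaP EOS cells (median -0.39). The 14 tested genes with an octamer had a median of -0.61 with 12 lower, and the 16 without it a median of -0.25 with 11 lower. In the pair numbered 1 the medians of both sets lay close together. The gap between them came from the pair numbered 2, which holds LNCaP PGK 2, and its cause was not tested. In DU145 the same sets had medians of -0.05 with an octamer and -0.08 without it, with 9 genes lower in each. POU2F2, an octamer-binding factor, was at 5.78 and 5.75 in LNCaP EOS cells, against 7.16 and 6.58 in LNCaP PGK cells (adjusted p = 0.999). S phase genes called in this comparison numbered 0 of 19. Their summed intensity was 105250 and 106720 in LNCaP EOS cells, against 103540 and 128100 in LNCaP PGK cells, so it too was highest on LNCaP PGK 2. The part of S phase genes in the histone values was not tested.

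**Figure D3:**
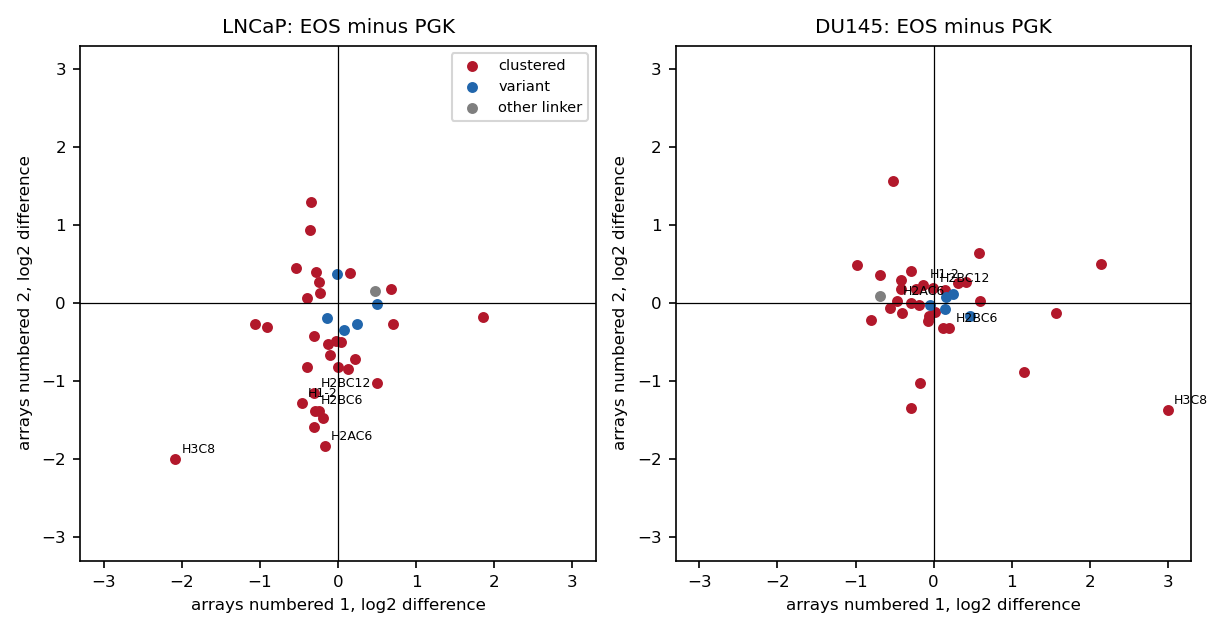
Difference EOS minus PGK in log2 units for each tested histone gene, with arrays numbered 1 on the x axis and arrays numbered 2 on the y axis, LNCaP left and DU145 right. In LNCaP many clustered genes lie near 0 on x and between -0.5 and -2 on y, such as H2AC6 at -0.17 and -1.84.

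In DU145, histone genes lay on both sides of 0 for EOS selection. limma called 0 of 37 members and 0% of all genes, and 1 member had an unadjusted p under 0.05 (0.663% of all genes higher and 0.921% lower). Clustered genes had a median of -0.06, with 13 higher and 18 lower, and variants a median of 0.11. The member with the smallest p value was H3C6, an H3 gene, at 6.58 and 6.35 in EOS cells, against 4.44 and 5.85 in PGK cells, a difference of 1.32 ± 0.57 (adjusted p = 1). The H3C6 level on DU145 PGK 1 was near 4, the lowest possible on this scale, and its other probe set differed by 0.39. H2BC14 differed by 0.61 ± 0.43. H2BC12, H1-2 and H2AC6 lay close together in DU145, with H2BC12 at 14.15 and 14.19 in EOS cells and 14.16 and 14.00 in PGK cells.

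The EOS effect in LNCaP minus that in DU145 was called for 0 of 37 members and 0% of all genes, with 0 members at an unadjusted p under 0.05 (2.5% of all genes higher and 0.74% lower). Its median was -0.34 for clustered genes, -0.04 for variants and 0.06 for all genes. Without LNCaP PGK 2 the clustered median was -0.04 and the variant median -0.14. H2BC12 had an effect difference of -0.82 ± 0.46 and H2AZ1 of -0.32 ± 0.20.

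Ribavirin was measured on 1 array per line, labelled as treated EOS cells number 2. Blocked by line and number, limma called 0 of 37 members and 0% of all genes for ribavirin minus EOS over both lines. At an unadjusted p under 0.05 there were 2 members, against 1.05% of all genes higher and 1.33% lower. Clustered genes had a median of 0.04 and variants of -0.08. The clustered median was -0.19, with 19 of 31 genes lower, without LNCaP EOS 2, so its sign rests on that array, and it was 0.22 without the block. H1-3, a linker gene, was at 7.52 with ribavirin, against 7.06 and 6.79 in EOS cells of LNCaP. In DU145 it was at 8.64 with ribavirin, against 7.28 and 7.73 in EOS cells. H1-3 was thus highest on the ribavirin array in both lines, with a mean difference of 0.83 ± 0.29 (adjusted p = 1). H2AC14 differed by -0.58 ± 0.25 (adjusted p = 1), but by -1.28 in DU145 and 0.05 in LNCaP against EOS 2. In LNCaP, H2AJ was at 14.22 with ribavirin, against 13.94 and 13.87 in EOS cells (adjusted p = 1).

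Array number was set against the histone genes within each line. In LNCaP, after scaling, the means of all 11 H2B genes lay higher on arrays numbered 2 than on arrays numbered 1, with a median of 0.75 and 2 called. Both arrays numbered 2 were above both numbered 1 for 8 of the 11, against 26.3% of all genes, and the arrays overlapped for H2BC14, H2BC15 and H2BC17. H2BC3, H2BC11 and H2BC17 passed the filter for low values only through arrays numbered 2. The filter itself thus favoured their higher values there, and H2BC3 and H2BC11 are among the 8. The others of the 8 were above the array median on all 10 arrays. In contrast, the 3 H3 genes lay lower (medians of -0.50 for H3 and -0.57 for H4, where 4 of 6 were lower). limma called 3 of 37 members, each higher on number 2, against 6.44% of all genes (3.59% higher and 2.85% lower). The clustered median was 0.18 and the variant median -0.02. On unscaled values, where the median of all genes was -2.05, 30 of 31 clustered genes lay lower on number 2, with a median of -1.63.

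H1-2 was at 13.03 on PGK 2 and 11.76 on EOS 2, against 11.12 on PGK 1 and 10.66 on EOS 1, a difference of 1.51 ± 0.20 (adjusted p = 0.0062). Both pairs showed it, by 1.91 among PGK cells and 1.10 among EOS cells, and the call held when any 1 of 8 arrays was left out. H2BC9 was at 10.81 on PGK 2 and 9.43 on EOS 2, against 9.01 on PGK 1 and 8.77 on EOS 1, a difference of 1.23 ± 0.27 (adjusted p = 0.0355). Its call was lost without LNCaP PGK 1 or LNCaP PGK 2. H2BC11 was at 6.93 and 6.62 on number 2, against 5.33 and 4.43 on number 1, a difference of 1.90 ± 0.45 (adjusted p = 0.0467), and lost its call without any 1 of the 8 arrays. It passed the filter for low values on 3 arrays, all LNCaP arrays numbered 2, and its call was lost with no filter. The H2BC11 call is thus not separate evidence of a higher level on those arrays. H2BC6 (1.08 ± 0.26, adjusted p = 0.0501) and H2BC12 (0.75 ± 0.19, adjusted p = 0.0573) lay just outside the threshold.

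Variants differed by array number in LNCaP by -0.27 for H2AJ to 0.43 for H3-3A, with 0 called. The 14 octamer genes had a median of 0.56 and the 16 others of -0.14. In DU145 these medians were 0.34 and 0.25. H2BC3, H2BC11 and H2BC17, which passed the filter for low values only through arrays numbered 2, are among the octamer genes. Among related lists, the chaperones ANP32E (0.78 ± 0.12, adjusted p = 0.00946) and HIRA (0.66 ± 0.15, adjusted p = 0.0382, but -0.14 by its probe set without a suffix) and the S phase genes MCM7 (0.72 ± 0.15, adjusted p = 0.0313) and MCM5 (0.78 ± 0.17, adjusted p = 0.0376) were higher on number 2, and MACROH2A2 was lower by 2.69 (SE 0.34, adjusted p = 0.00532). Markers of cell identity differed by array number too. LYZ, a leukocyte marker, was called higher on number 2 in LNCaP (3.08 ± 0.51, adjusted p = 0.0138), while CD3E, the other leukocyte marker that passed the filter, differed by -0.28. LYZ passed the filter only on LNCaP arrays numbered 2, so its call is not separate evidence of a higher level there. The summed leukocyte marker intensity was 250.3 on LNCaP PGK 2 and 323.9 on LNCaP EOS 2, against 149.9 on LNCaP PGK 1 and 151.5 on LNCaP EOS 1. Luminal markers of LNCaP lay lower on number 2 in 6 of 6 genes, with ACP3, prostatic acid phosphatase, called (-2.45 ± 0.41, adjusted p = 0.0152), and DU145 markers lay higher in 4 of 5 with 0 called. The part of these markers in the histone values was not tested. The ACTB end ratio goes with array number, and the part of RNA quality in these differences cannot be told apart from that of the samples.

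In DU145, limma called 0 of 37 members and 0% of all genes between array numbers. At an unadjusted p under 0.05, 2 members were higher on number 2, against 3.78% of all genes higher and 3.99% lower. H2BC21 differed by 0.73 ± 0.20 (adjusted p = 0.466) and H3-3A by 0.80 ± 0.22 (adjusted p = 0.479), both higher in both pairs. H3-3A was at 8.90 and 8.88 on PGK 2 and EOS 2, against 8.11 and 8.07 on PGK 1 and EOS 1. Brighter probe sets shared by H3-3A and H3-3B differed in both directions. In 1 of them PGK 2 and EOS 2 were both at 13.62, against 13.98 and 14.01 on number 1. Another was at 14.85 and 15.09, against 14.69 and 14.82. The number effect in LNCaP minus that in DU145 was called for 0 of 37 members, against 0.942% of all genes (0.558% higher and 0.384% lower), and its smallest adjusted p among members was 0.0856, for H1-2 at 1.37 ± 0.28.

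**Figure D4:**
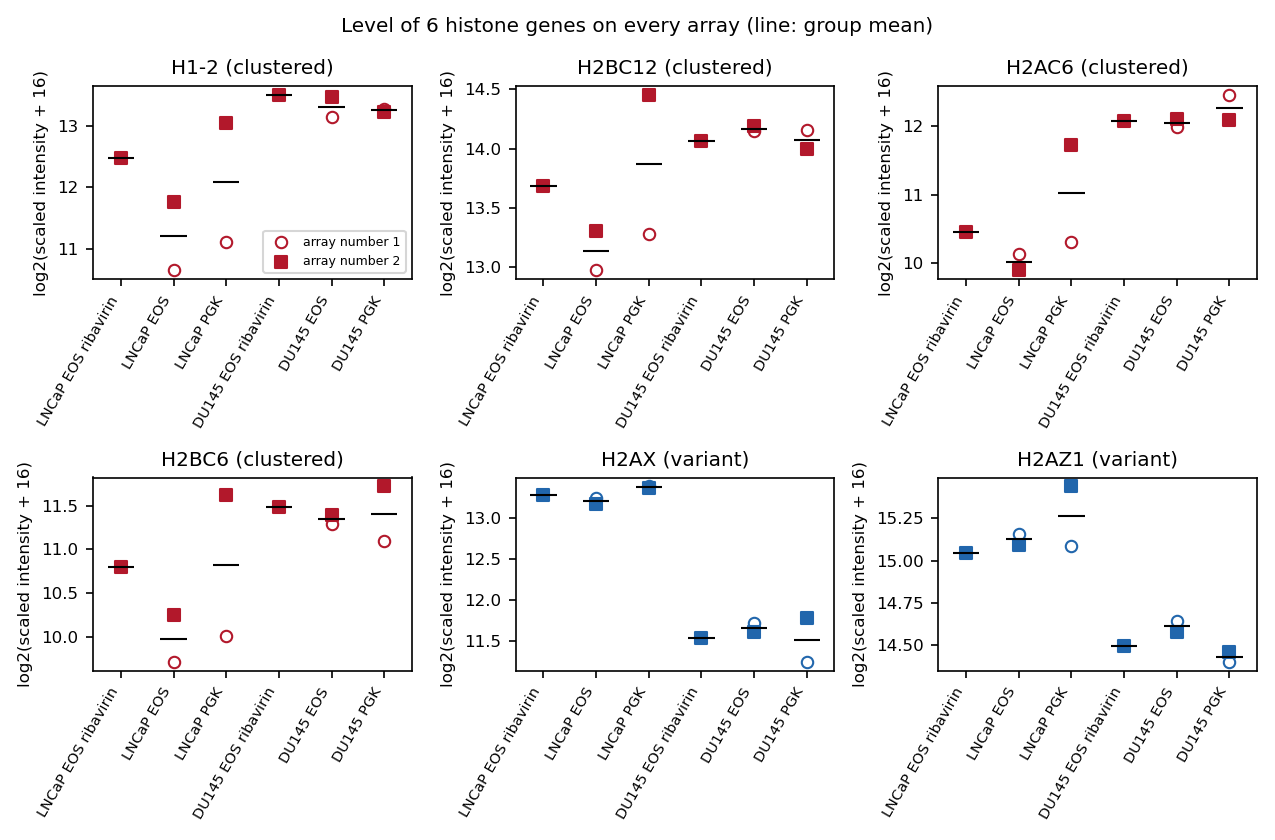
Level of 6 histone genes on every array in log2(scaled intensity + 16), LNCaP left of DU145 and ribavirin, EOS and PGK from left to right, with open points for array number 1 and filled points for number 2. H2AX and H2AZ1 separate the lines, and H1-2, H2BC12, H2AC6 and H2BC6 are high on LNCaP PGK 2.

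Across the 10 arrays, with line means removed, 10 of 31 clustered genes correlated above 0.6 with the mean of the other clustered genes. The highest r was 0.88 for H2BC17, then 0.86 for H2BC4 and for H2BC6. H2BC17 passed the filter for low values only on DU145 PGK 2 and LNCaP PGK 2. Clustered genes were high on LNCaP PGK 2, so the filter itself favoured the high r of H2BC17. Another 7 genes had r below 0, the lowest H4C4 at -0.64. Clustered genes thus did not form a single group on these arrays. The genes outside the family most like the mean of the clustered genes were EIF2B5 (r = 0.98), COXFA4 (0.95), SCLT1 (0.95), MTERF1 (0.94) and CDC23 (0.94). These correlations are descriptions over arrays that share array number, scaling and RNA quality, with LNCaP PGK 2 among the points.

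**Figure D5:**
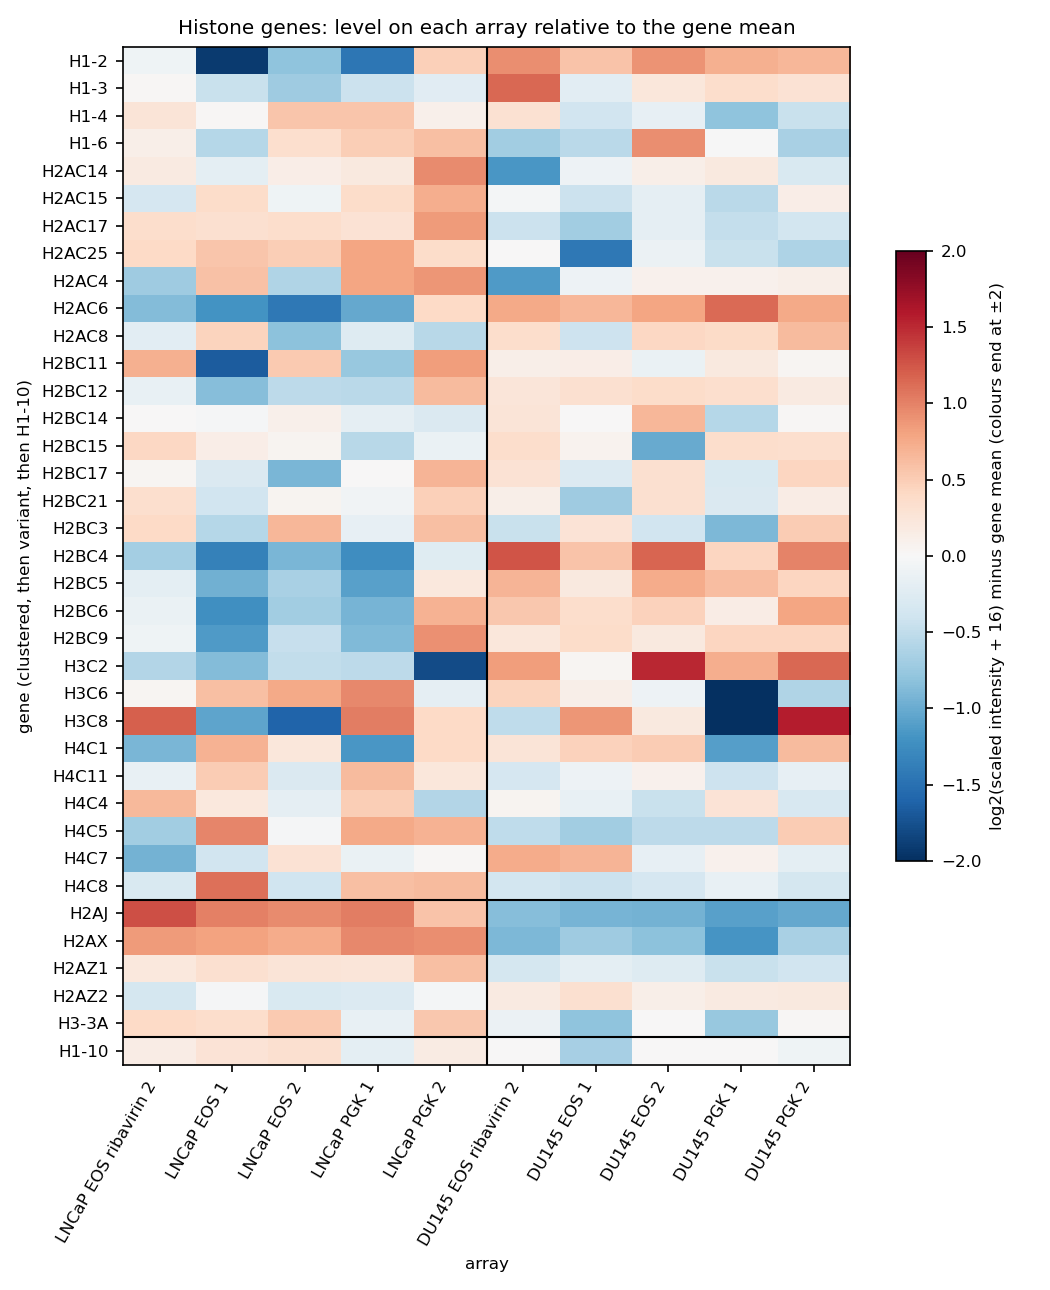
Level of each of the 37 tested histone genes on each array minus that gene's mean over the arrays, in log2 units, with LNCaP left and DU145 right and colours ending at 2 either way. Variants H2AJ, H2AX and H2AZ1 are red across LNCaP, and H2BC5, H2BC6, H2BC9 and H2BC12 are red on LNCaP PGK 2 but blue on the other LNCaP PGK and EOS arrays.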

How the data were processed

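Total RNA of 10 samples was measured on Affymetrix arrays, 1 array each. The deposited values were probe set intensity values on a linear scale, and MAS5 and affy are named in the submitters' processing notes. Background correction and versions are not given in the sources used here.

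Of 54675 probe sets, 62 controls were dropped, and 41091 had 1 symbol, 1801 several and 11721 none. Array intensities were brought to a trimmed mean of 500 (2% trimmed at each end), and log2(intensity + 16) was taken. Genes above the array median on at least 2 arrays were kept, with the probe set of highest mean per gene, giving 14330 genes. limma 3.58.1 in R 4.3.3 fitted means of 6 groups (4 residual degrees of freedom) with a trended prior variance. Benjamini-Hochberg adjusted p-values under 0.05 were called. SEs come from this shared spread, so each lone ribavirin array was assumed to vary like other groups. Line-by-number blocks (2 residual degrees of freedom) were used for ribavirin and array number. Array number goes with the deposited scale, so it was treated as a batch; the labels do not say what it marks. The number of arrays limits the precision. The fit was tested on simulated data.

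Members and lists were chosen with earlier results of these data known. Named were all variants, H1-10, up to 8 clustered genes per comparison by smallest p, and up to 4 called genes per list; other genes named were chosen after their values were seen. Alternatives were pseudocounts of 1 and 64, quantile normalization, unscaled values, no filter, other probe set choices, and leaving out each PGK or EOS array.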

Additional observations from a re-analysis of the deposited data

Results flagged for a closer look

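H2BC15 had opposite EOS minus PGK differences in the lines, 0.69 and 0.18 in the LNCaP pairs and -0.29 and -1.35 in the DU145 pairs. The difference between lines was 1.25, with an adjusted p = 1, so limma's interaction term did not pass.

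H2BC11 was higher on array number 2 in both LNCaP pairs, by 1.60 and 2.19, and lower in both DU145 pairs, by -0.15 and -0.26. The difference between lines was 2.10 (adjusted p = 0.206), for a gene that passed the filter for low values only on LNCaP arrays numbered 2. H2BC9 differed likewise, by 1.81 and 0.66 in the LNCaP pairs and by -0.01 and -0.17 in the DU145 pairs, a difference of 1.32 (adjusted p = 0.183). Neither passed limma's interaction term.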

How the results depend on the processing

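Counts of called histone genes between the lines were 11 to 15 when arrays were left out in turn, 19 with the replicate block, 7 with probe sets without a suffix and 0 on unscaled values, where arrays of a group differ in deposited scale. Blocking changed no count of called members in the EOS comparisons, which were 0 throughout, also when arrays were left out. Whether numbers pair PGK and EOS arrays is not settled: deviations from group means correlated at r = 0.123 in DU145 (-0.26 over clustered genes) and 0.483 in LNCaP (0.42), against 0.128 between the EOS arrays of both lines. Between array numbers in LNCaP the count was 2 to 6 with arrays left out, 1 with a pseudocount of 1 and 34 on unscaled values, and in DU145 it was 31 on unscaled values and 0 otherwise when arrays were left out. Unscaled, the median of all genes moved to -1.93 in DU145 and -2.05 in LNCaP between array numbers, and to -0.18 for EOS in DU145.

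The gap of clustered minus variant medians ranged, with arrays left out, from -0.93 to -0.73 between lines, -0.44 to -0.08 for EOS in LNCaP, -0.27 to 0.06 for EOS in DU145, -0.55 to 0.10 for the EOS effect between lines, 0.08 to 0.29 for ribavirin, 0.13 to 0.19 for number in LNCaP and 0.03 to 0.28 for number in DU145. Without suffixed probe sets it was -0.09 between lines, -0.11 for EOS in LNCaP, 0.01 for the EOS effect and -0.11 for number in LNCaP. With the mean of all probe sets it was 0 for EOS in DU145 and -0.56 for the EOS effect. Unscaled, it was 0.64 for number in DU145 and 0.73 for number in LNCaP. The causes were not tested.

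Of 2540 values of single genes under alternatives, 26 reversed. Without suffixed probe sets, LNCaP minus DU145 became -0.46 for RBBP4, -3.04 for MACROH2A1, 0.15 for POSTN and -0.47 for KLK2, and number 2 minus number 1 in LNCaP became -0.14 for HIRA. On unscaled values, where number 1 was deposited on the higher scale, number 2 minus number 1 in DU145 became -1.86 for H1-10, -2.13 for H2AJ, -1.94 for H2AX, -1.21 for H3-3A, -1.39 for H2BC21, -1.49 for H2BC4, -0.96 for H3C2, -1.45 for H2AC25, -1.04 for ARID3B, -1.87 for NAP1L1, -1.10 for PECAM1 and -1.75 for VIM. In LNCaP it became -2.12 for H1-10, -2.20 for H2AZ1, -1.79 for H3-3A, -0.83 for H1-2, -1.03 for H2BC9, -1.55 for ANP32E, -1.67 for HIRA, -1.62 for MCM7 and -1.53 for MCM5. Quantile normalization called 10 members higher and 8 lower between lines, against 6 higher and 8 lower. Background correction could not be varied. With 2 arrays per group and signal near background for the dimmer clustered genes, small differences were not detectable.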

Other observations

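Probe sets shared by several histone symbols, 28 in all, were kept out of the tests above. Of the 8 that carry H3-3A and H3-3B, 7 were higher in LNCaP than in DU145, by 0.29 to 0.60, and 1 differed by -1.86. This is the only reading of H3-3B here. The 7 shared H2A and H2B probe sets above the median on all arrays were lower in LNCaP EOS cells than in LNCaP PGK cells in 7 of 7 cases, by values of -0.50 to -1.11. They share arrays, LNCaP PGK 2 included, and may hold signal of the members described above, so they are not separate evidence.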
